A study of Mus musculus with 18 samples.

Results

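The serpins are a family of protease inhibitors that share a fold with an exposed loop. A target protease cleaves the loop, the inhibitor changes shape and the protease is trapped. Members of clade b lack a classical signal peptide and act mostly inside cells, while many members of the other clades are secreted into plasma or tissue. Epidermal keratinocytes make several clade b members, and some serpins have lost inhibition and serve as chaperones or hormone carriers.

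RNA-seq counts of the Serpin genes were examined in epidermal cells of mice with or without Zfp36, which encodes tristetraprolin, an RNA-binding protein that speeds the decay of mRNAs with AU-rich elements. Genes were taken as members when their symbol began with Serpin, did not end in -ps, and had at least 10 counts summed over all 18 columns of the table. This gave 42 members among 52636 genes, 22 in clade b and 20 in other clades. Clade a held 10 of the latter, clade e 3, clade f 2, and clades c, d, g, h and i held 1 each. Another 21 Serpin rows were under the minimum, 6 of them with no count. Serpina16 and Serpina1e, with 8 and 9 counts, lay just outside it, and Serpinb6e, Serpinb9e and Serpinb1c, with 15 counts each, lay just inside.

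Both genotypes carried floxed Zfp36 alleles. Controls are written fl/fl, and ΔK14 (DK14 in the labels) marks littermates whose Zfp36 was deleted by a Cre under the human keratin 14 promoter, so that cells outside this lineage kept the gene. Cells were taken from mock-treated skin (Mock), from skin without tumors next to papillomas after treatment with the mutagen DMBA and the tumor promoter TPA (Treated), and from the papillomas of such mice (Tumor). They had been sorted as EpCAM+ and negative for CD45, CD140a and CD31, which removes most leukocytes, fibroblasts and endothelial cells. The labels call the source whole skin, call the Treated cells treated tumoral keratinocytes, and give no ages. They do not say whether replicates came from separate mice, so p-values measure the spread between these libraries. Each group had 3 columns, but those of Mock ΔK14 replicates 2 and 3 were identical in all 52636 genes and were counted as 1 library, which left 17 libraries and n = 2 in that group.

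Total counts ran from 2808550 (Tumor fl/fl replicate 1) to 9617985. Levels are given as CPM, counts per 1000000 counts of the scaled library size. Zfp36 was at 152 to 713 CPM in the fl/fl libraries and at 10.05 to 38.4 CPM in the ΔK14 libraries, without overlap. All 8 markers of basal keratinocytes had counts in every library, but their summed level ran from 3724 to 33411 CPM. It was 3730 and 3888 CPM in Mock replicate 1 of fl/fl and ΔK14, against 18395 to 19278 CPM in the other Mock libraries, while 6 melanocyte markers were at 319 and 278 CPM in that pair against 41.7 to 94.3 CPM. Mock replicate 1 of each genotype therefore stood apart from the rest of its group. Treated ΔK14 replicate 1 did so as well, at 3724 CPM for the keratinocyte list and 366 CPM for the melanocyte markers. The other Treated ΔK14 libraries were at 6817 and 13312 CPM and at 52.2 and 53.4 CPM. Tumor fl/fl replicate 1 stood apart from the other fl/fl tumors, at 33411 CPM for the keratinocyte list against 9776 and 9998 CPM. In bulk RNA, fewer keratinocytes and less RNA per keratinocyte cannot be told apart.

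Zfp36 protein is known to bind UAUUUAU within AU-rich elements, so the longest annotated 3′ untranslated region (UTR) of each gene was searched for TATTTAT on the sense strand. This heptamer was present in 7 of the 40 members with an annotated UTR, or 17.5%, against 27.6% of 21045 genes. The median UTR was 709 bases long for these members and 1091 bases for all genes. The longer nonamer TTATTTATT, which contains the heptamer, was found in Serpinb2 and Serpini1 alone among the members, against 7.61% of all genes. The windows of 30 bases around the motif are shown for 3 members that also passed the test in tumors, from GENCODE transcripts on GRCm38, 5′ to 3′ on the strand of the gene, with the motif in capitals:
Serpinb2: ttttacagtgTTATTTATTgtttatataat
Serpinb9: ctctgtagccaTATTTATagcagcaaataa
Serpinh1: atcagtgttcaTATTTATggccaggcattc
The Serpinb2 window lies at chr1:107525197-107525226 on the plus strand, that of Serpinb9 at chr13:33017520-33017549 on the plus strand and that of Serpinh1 at chr7:99345809-99345838 on the minus strand. Serpinb8, Serpinc1 and Serpini1 hold the heptamer as well. A match is a description of letters and no evidence of binding.

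Serpinb3a and its neighbours Serpinb3b, Serpinb3c and Serpinb3d are near copies on chromosome 1. The stretch from 250 bases before to 50 bases after the start of Serpinb3a matched that of Serpinb3b in 257 of 300 bases (85.7%), whereas Serpinb3d matched each of the other copies in 51.3% to 52.0%. These promoters are shown because Serpinb3a had no count in Mock skin while Serpinb3b did. The 250 bases before each start are RefSeq sequences on GRCm38.p6. Capitals mark the bases that differ or are unpaired when the full 300 bases are aligned. The last bases shown for Serpinb3a therefore pair with Serpinb3b bases that are not shown:
Serpinb3a: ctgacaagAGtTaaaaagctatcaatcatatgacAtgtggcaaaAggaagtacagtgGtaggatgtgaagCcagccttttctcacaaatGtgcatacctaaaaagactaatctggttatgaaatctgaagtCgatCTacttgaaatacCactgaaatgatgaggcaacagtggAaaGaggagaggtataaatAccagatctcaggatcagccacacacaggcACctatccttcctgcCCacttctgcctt
Serpinb3b: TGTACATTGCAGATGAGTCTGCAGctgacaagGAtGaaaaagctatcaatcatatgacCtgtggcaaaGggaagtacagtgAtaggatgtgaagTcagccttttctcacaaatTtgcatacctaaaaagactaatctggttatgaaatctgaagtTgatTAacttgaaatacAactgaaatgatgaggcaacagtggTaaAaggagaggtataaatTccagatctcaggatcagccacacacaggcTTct
The first is chr1:107052304-107052553 and the second chr1:107161115-107161364, both on the minus strand. The AP-1 motif TGACTCA, searched on both strands, was in neither. It was found in 2 of the 36 members with a promoter in the table, Serpinb7 and Serpinb8, against 5.95% of 27025 genes.

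The 22 clade b members lie in a pair of clusters on GRCm38. On chromosome 1, 12 genes run from Serpinb5 (106861173) to Serpinb8 (107610484), and on chromosome 13, 10 genes run from Serpinb1a (32842092) to Serpinb6a (34002794). The 10 clade a members lie on chromosome 12 between 103994743 and 104414329. Per kilobase of exon, the highest levels averaged over groups were those of Serpinb2 at 219 CPM per kilobase and Serpinb5 at 174, followed by Serpinh1 at 36.7, Serpinb6a at 23.7 and Serpinb10 at 21.6. Serpinb2 and Serpinb5 together made up 67.2% to 78.9% of the summed clade b CPM in each library. Serpinc1 (antithrombin), Serpind1 (heparin cofactor II) and Serpini1 (neuroserpin), the leading or sole members of their clades, were at 0.595, 0.4104 and 0.308 CPM per kilobase on this average, and none of their group means exceeded 0.786.

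**Figure D1:**
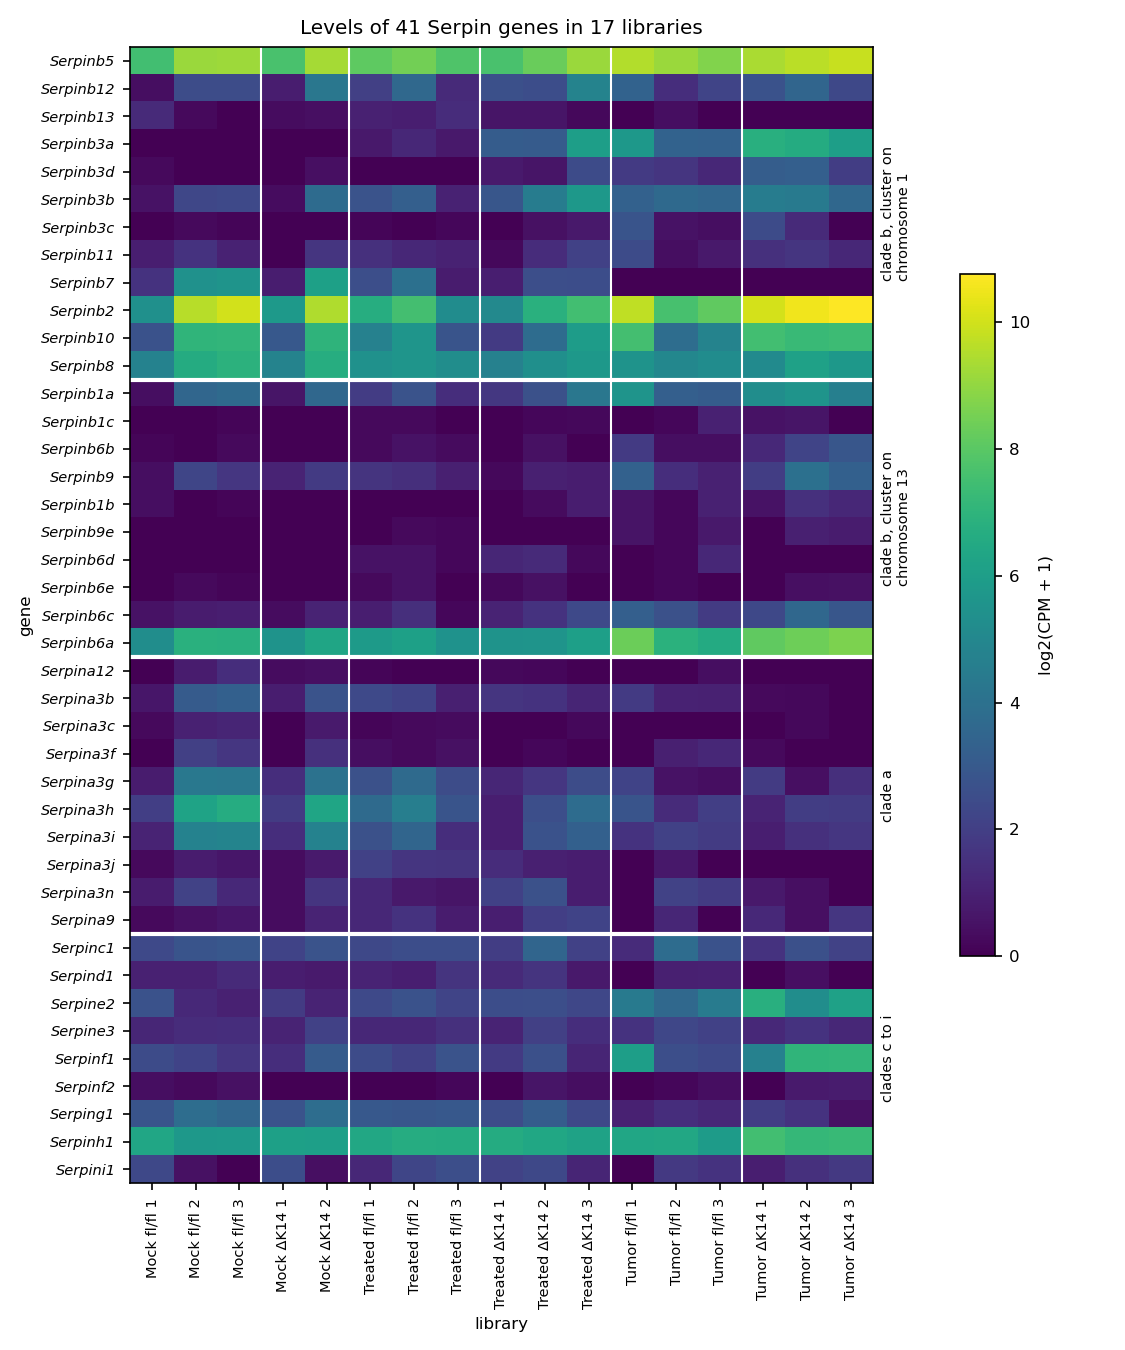
Heat map of log2(CPM + 1) for 41 Serpin genes (rows, grouped by clade and cluster) in the 17 libraries (columns, grouped by stage and genotype). Serpinb5 and Serpinb2 are the brightest rows, Serpinb3a brightens in the tumor columns, and Mock replicate 1 of each genotype is darker than the other Mock libraries in many clade b and Serpina3 rows.

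A gene was called when its adjusted p was under 0.05 and its fold change over 2. Tumors against Treated skin asked which serpins differ between papilloma and neighbouring skin. In fl/fl mice 6 of the 22 members tested rose and 4 fell, while in all genes tested 7.5% were called higher and 10.5% lower. In ΔK14 mice 9 of the 24 members tested rose and 1 fell, while in all genes 10.5% were called higher and 15.5% lower. The calls higher included 4 clade b members in fl/fl and 6 in ΔK14, and every call lower was of another clade. The 20 and 18 members that did not pass the filter on low counts were not tested.

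Serpinb2 (plasminogen activator inhibitor type 2, a clade b inhibitor of urokinase that is mostly kept inside the cell) was at 1077, 1491 and 1731 CPM in ΔK14 tumors and 31.997, 112 and 182 CPM in Treated ΔK14. It rose there by a log2 fold change of 3.63 ± 0.55 (SE, adjusted p = 0.00203). In fl/fl it was at 839.9, 198 and 279.5 CPM in tumors and 103, 184 and 36.2 CPM in Treated skin. These groups did not overlap, but the difference of 2.01 ± 0.68 did not pass the test (adjusted p = 0.0632). Mock libraries had 41.1, 776 and 1028 CPM in fl/fl and 54.5 and 718 CPM in ΔK14. The low Mock value in each genotype was replicate 1, so Mock skin ran from near the lowest Treated level to above the fl/fl tumors.

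Serpinb10 lies next to Serpinb2 and overlaps it by 291 exon bases on the same strand, and the annotation calls it a polymorphic pseudogene. It was at 181, 157 and 166 CPM in ΔK14 tumors against 2.503, 12.9 and 61.2 in Treated ΔK14 and rose by 2.66 ± 0.80 (adjusted p = 0.0310). Its counts were 6.83% to 33.6% of those of Serpinb2 in single libraries. Stretches of 50 bases shared with Serpinb2 made up 6.97% of its transcript sequence, so a part of its reads may have been assigned to either gene or dropped.

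Serpine2 (protease nexin type 1, an inhibitor of thrombin and plasminogen activators) was at 20.03, 11.6 and 21.6 CPM in fl/fl tumors and 111, 37.8 and 69.96 CPM in ΔK14 tumors. It was at 4.11, 5.46 and 3.64 CPM in Treated fl/fl and 4.83, 4.94 and 3.88 CPM in Treated ΔK14. The groups did not overlap within either genotype, and the log2 fold changes were 1.98 ± 0.34 (adjusted p = 0.00768) and 3.90 ± 0.42 (adjusted p = 0.000521).

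**Figure D2:**
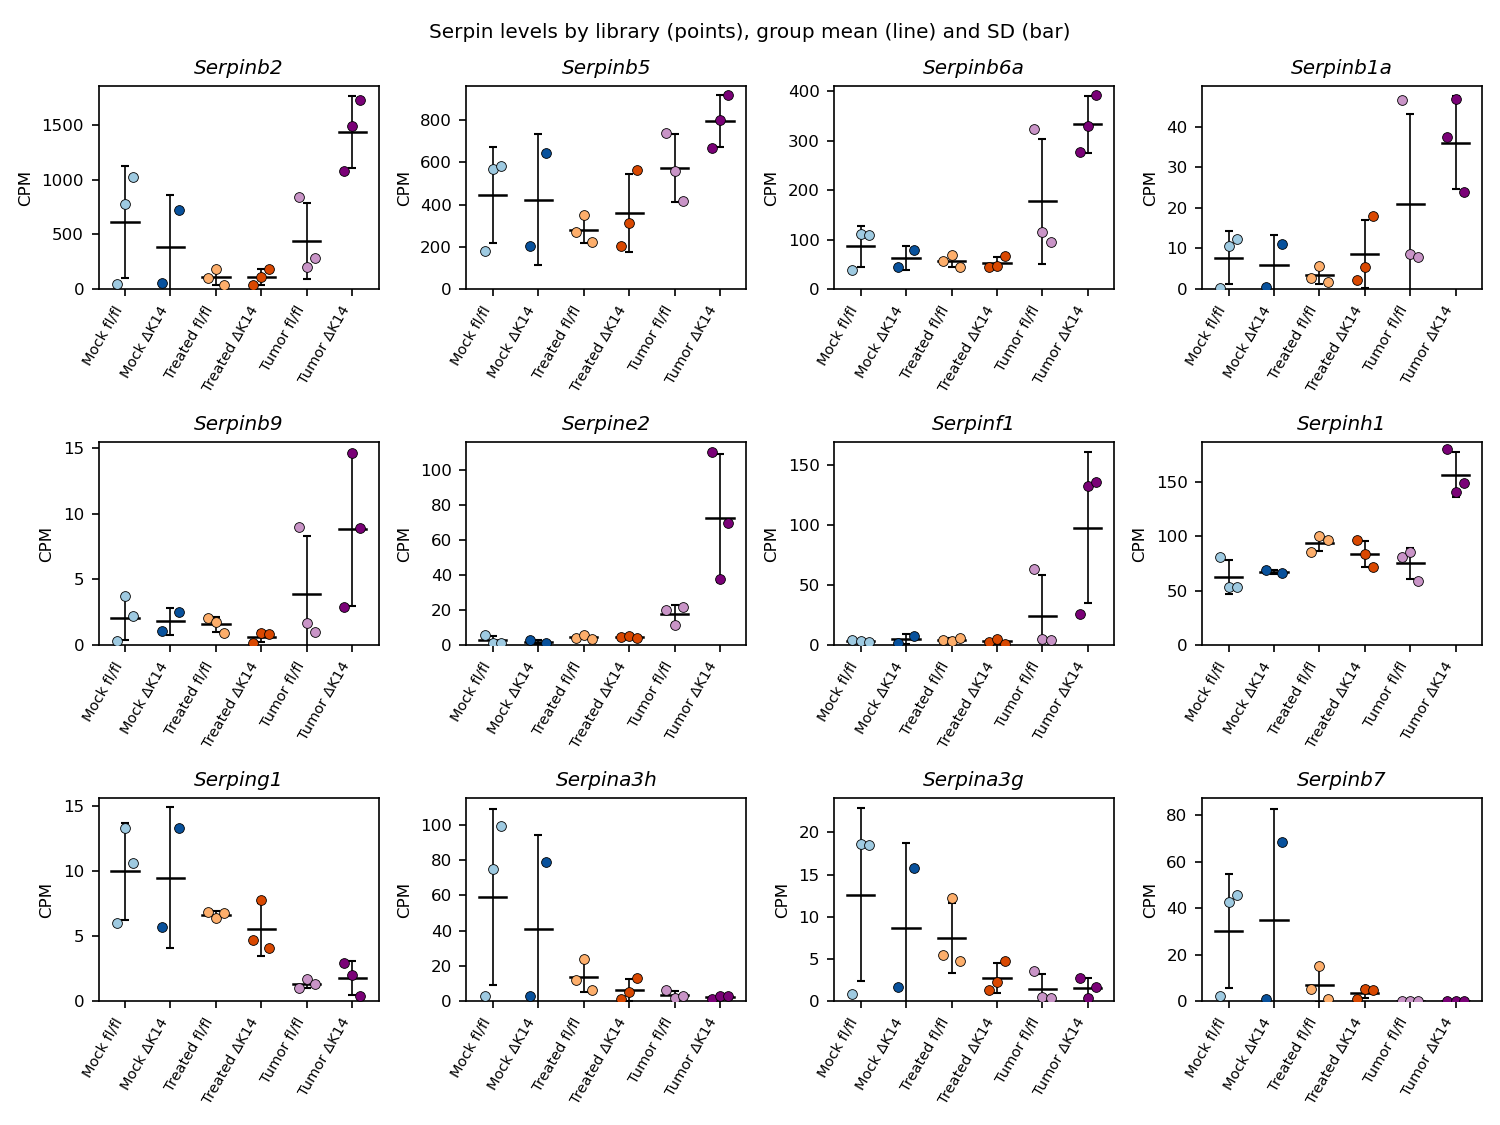
CPM of 12 Serpin genes by group, with 1 point per library, the group mean as a line and the SD as a bar (bars are cut at 0). Serpine2 is higher in the 6 tumors than in Treated skin, Serping1 is lower in all 6 tumors, and Mock groups of Serpinb2, Serpina3h and Serpinb7 are split by a low replicate 1.

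Further clade b members were called higher in tumors. Serpinb6a, an inhibitor of cathepsin G and related proteases, was at 323, 116 and 94.4 CPM in fl/fl tumors and 277, 329.5 and 393 CPM in ΔK14 tumors. In Treated skin it was at 56.8, 68.6 and 43.996 CPM in fl/fl and 44.9, 46.6 and 67.1 CPM in ΔK14. It rose in both genotypes, by 1.61 ± 0.45 (adjusted p = 0.0351) and 2.56 ± 0.22 (adjusted p = 0.000226). Without Tumor fl/fl replicate 1, the highest of that group, the fl/fl difference was 0.89 ± 0.20 (adjusted p = 0.00995), under the fold set for a call. Exons of this gene are overlapped by other genes over 1587 bases, most of all by Nqo2 on the opposite strand, and the use of strand in counting is not stated. Nqo2 itself was at 3.196 to 15.9 CPM in every library, well under Serpinb6a.

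Serpinb1a, an inhibitor of neutrophil elastase, was at 46.6, 8.52 and 7.84 CPM in fl/fl tumors and 37.5, 46.7 and 23.9 CPM in ΔK14 tumors. In Treated skin it was at 2.81, 5.68 and 1.69 CPM and 2.32, 5.33 and 18.04 CPM. It rose by 2.58 ± 0.78 (adjusted p = 0.0459) in fl/fl and by 2.00 ± 0.59 (adjusted p = 0.0285) in ΔK14. Without Tumor fl/fl replicate 1 the fl/fl rise was 1.33 ± 0.46 (adjusted p = 0.0499).

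Serpinb9, which inhibits granzyme B, was low in skin, at 0.179, 0.909 and 0.843 CPM in Treated ΔK14. It was at 2.901, 14.7 and 8.91 CPM in ΔK14 tumors and rose by 3.59 ± 0.69 (adjusted p = 0.00499). In fl/fl tumors replicate 1 alone was high, at 9.02 CPM, beside 1.67 and 0.980 CPM. The summed level of 11 leukocyte markers was 61.8 to 90.2 CPM in ΔK14 tumors and 17.5 to 35.6 CPM in fl/fl tumors. Apart from Cd74, no marker of the list exceeded 7.2 CPM in any library. Of the 3 markers tested between genotypes in tumors none was called, and their median log2 fold change was -0.04. The part of leukocytes in the Serpinb9 values was not tested.

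Serpinb5 (maspin, a member without known protease inhibition that epithelial cells make) changed least among the calls higher. It was at 669, 798 and 919.7 CPM in ΔK14 tumors and 205, 313 and 562 CPM in Treated ΔK14, where it rose by 1.06 ± 0.33 (adjusted p = 0.0346). In fl/fl it was at 739.7, 558 and 418 CPM in tumors and 269.9, 350.1 and 221 CPM in Treated skin, a difference of 0.999 ± 0.255 that fell just short of the fold set for a call (adjusted p = 0.0267).

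Serpinb6c, another member of the chromosome 13 cluster, was at 8.51, 5.33 and 2.61 CPM in fl/fl tumors and 0.865, 1.75 and 0.130 CPM in Treated fl/fl. It rose by 2.61 ± 0.73 (adjusted p = 0.0360). In ΔK14 it was at 4.02, 11.2 and 6.45 CPM and 1.07, 1.95 and 4.21 CPM. The difference there was 1.49 ± 0.53 and did not pass (adjusted p = 0.0540).

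Serpinb3a had the most distinct pattern by stage. Serpinb3 genes are the mouse relatives of human squamous cell carcinoma antigen, an inhibitor of cysteine cathepsins. It had no count in any of the 5 Mock libraries. It was at 0.649, 1.31 and 0.651 CPM in Treated fl/fl, 7.87, 7.41 and 64.6 CPM in Treated ΔK14, 51.6, 9.28 and 9.14 CPM in fl/fl tumors and 111, 97.8 and 63.9 CPM in ΔK14 tumors. Treated ΔK14 replicate 3 lay inside the range of the ΔK14 tumors. In fl/fl it rose from Treated skin to tumor by 4.70 ± 0.84 (adjusted p = 0.00845). Without Tumor fl/fl replicate 1 this rise was 3.46 ± 0.40 (adjusted p = 0.000553). In ΔK14 the difference was 1.72 ± 0.73 (adjusted p = 0.0967), and without Treated ΔK14 replicate 3 it passed the test, at 3.49 ± 0.32, adjusted p = 0.000302. The library left out was the highest of its group for Serpinb3a, so this second p-value is no separate support. That library also had 179 CPM of leukocyte markers, against 14.5 and 23.1 CPM in the other Treated ΔK14 libraries. Cd74 alone gave 172 of the 179 CPM, and no other marker of the list exceeded 7.2 CPM in any library. The part of leukocytes was not tested.

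The copies did not share this pattern. Serpinb3b was at 0.442, 3.91 and 4.14 CPM in Mock fl/fl, 0.270 and 12.6 in Mock ΔK14, 5.73, 8.52 and 1.04 in Treated fl/fl and 6.44, 21.96 and 52.6 in Treated ΔK14. In tumors it was at 9.02, 11.9 and 10.8 CPM in fl/fl and 21.6, 20.5 and 10.996 CPM in ΔK14, within its range in Treated ΔK14 skin. It passed in no comparison. Serpinb3d was at most 0.359 CPM in Mock and 0 in all Treated fl/fl libraries, and it was at 2.504, 2.13 and 1.31 CPM in fl/fl tumors and 8.03, 8.51 and 2.84 CPM in ΔK14 tumors. Serpinb3c was over 1 CPM only in Tumor fl/fl replicate 1 (6.01 CPM) and in 2 ΔK14 tumors (4.46 and 1.45 CPM). Serpinb3a gave 74.6% of the summed CPM of the 4 copies in Tumor fl/fl replicate 1 and 76.3% to 82.2% in ΔK14 tumors, but 39.1% and 42.4% in the other fl/fl tumors. Shared stretches of 50 bases with any other gene made up 12.2% to 15.04% of the sequence of each copy, so the division of reads between copies is uncertain.

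**Figure D3:**
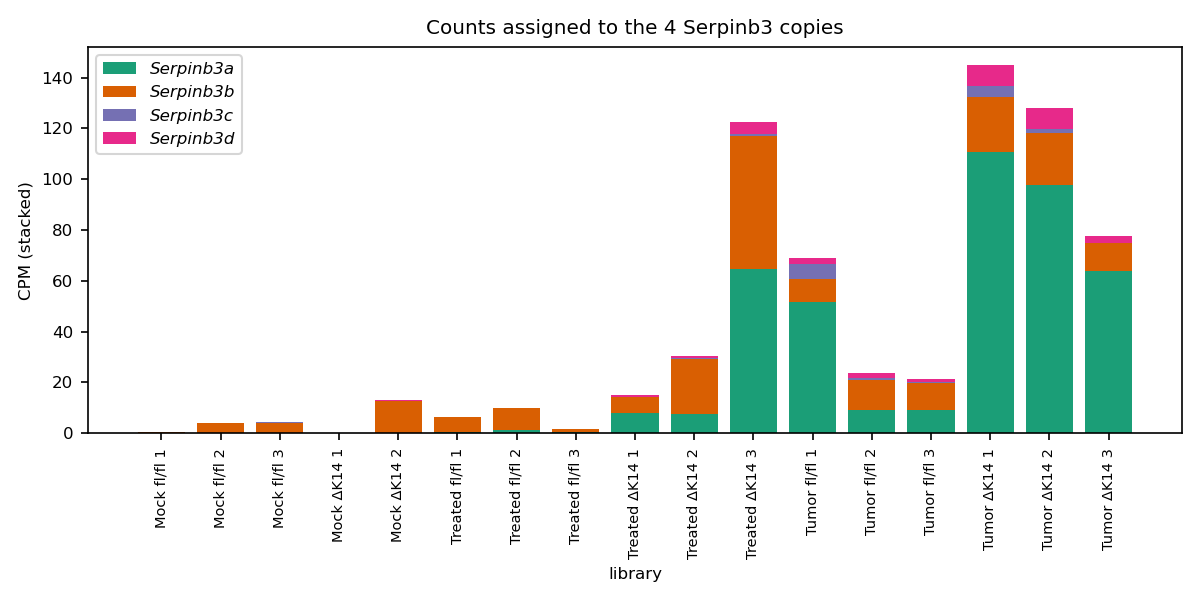
Stacked CPM of Serpinb3a, Serpinb3b, Serpinb3c and Serpinb3d in each library. The Serpinb3a part is absent from the 5 Mock libraries and makes up most of the bar in the 3 ΔK14 tumors and in Tumor fl/fl replicate 1, and Treated ΔK14 replicate 3 reaches 122 CPM in all.

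Secreted members of other clades moved in both directions. Serpinf1 (pigment epithelium-derived factor, a secreted protein without known protease inhibition that limits vessel growth) was at 25.4, 132 and 136 CPM in ΔK14 tumors and 2.503, 5.197 and 1.18 CPM in Treated ΔK14. It rose by 4.86 ± 0.72 (adjusted p = 0.00188). In fl/fl tumors it was at 63.6, 5.02 and 4.25 CPM, so replicate 1 alone lay above the Treated fl/fl libraries, and the difference did not pass (adjusted p = 0.125). The summed level of 8 fibroblast markers, of which Dcn fell, was 149 to 534 CPM in tumors against 443 to 1074 CPM in Treated skin.

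Serping1 (C1 inhibitor, which restrains complement and contact activation) was the call lower shared by both genotypes. It was at 1.002, 1.67 and 1.31 CPM in fl/fl tumors against 6.82, 6.34 and 6.77 in Treated fl/fl and fell by 2.26 on the log2 scale (SE 0.37, adjusted p = 0.00623). In ΔK14 it was at 2.901, 1.99 and 0.379 CPM against 4.65, 7.79 and 4.05 and fell by 1.77 (SE 0.59, adjusted p = 0.0438). The proteases that it inhibits went the other way, since C1ra and C1s1 rose in tumors of both genotypes (C1s1 by 2.16 ± 0.67 in fl/fl and 2.88 ± 0.55 in ΔK14).

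Of the Serpina3 genes, a mouse expansion related to human antichymotrypsin, 3 fell in fl/fl tumors against Treated fl/fl skin. Serpina3h, annotated as a transcribed pseudogene, was at 6.01, 1.52 and 2.94 CPM in tumors and 12.01, 23.6 and 5.99 CPM in Treated skin, where the highest tumor and the lowest Treated library met (-2.15 ± 0.64, adjusted p = 0.0440). Serpina3g was at 3.51, 0.457 and 0.327 CPM against 5.41, 12.2 and 4.69 (-2.75 ± 0.81, adjusted p = 0.0417). Serpina3j was at 0, 0.609 and 0 CPM against 3.25, 2.19 and 2.08 (-2.93 ± 0.77, adjusted p = 0.0295). In ΔK14 none of these passed. The summed CPM of the Serpina3 genes was 5.79 to 14.02 in the 6 tumors and 10.01 to 53.1 in Treated skin. In Mock skin it was 6.64 and 7.28 CPM in replicate 1 of each genotype and 132 to 160.1 CPM in the other libraries. Serpina3h shared 21.9% of its sequence with other genes at 50 bases, Serpina3i 15.9% and Serpina3g 15.5%, so their division is uncertain.

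Only some of these calls stood in every fit that left out a library. In fl/fl, calls of Serpine2 and Serping1 were kept in all 6 such fits, and the number of calls fell from 10 to 3, 5 and 6 without Treated replicate 1, 2 and 3. Without Tumor fl/fl replicate 1 it was 13, since the call of Serpinb6a was lost and Serpinb7 (lower), Serpina3n, Serpinc1 and Serpine3 (higher) were called. In ΔK14, calls of Serpinb2, Serpinb6a, Serpinb9, Serpine2 and Serpinf1 were kept in all 6, and the number rose to 17 without Treated replicate 3. The shares of all genes called in these fits were not set beside the numbers of members.

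Tumors were also compared with Mock skin. In fl/fl 4 of 25 members tested were called, 3 higher and 1 lower, while 2.22% of all genes were called higher and 1.88% lower. They included Serpinb3a, Serpinb6c (2.88 ± 0.60, adjusted p = 0.0459) and, lower, Serping1 (-2.85 ± 0.50, adjusted p = 0.0275). Serpinb3a was at least 57.97-fold higher, with Mock set to 3 counts per library (adjusted p = 0.0297). The number of calls rested on single libraries. It was 12 without Mock replicate 1, 0 without Mock replicate 2, 1 without Mock replicate 3, 2 without Tumor replicate 1 and 1 without Tumor replicate 2 or 3. Shares of all genes called in fits that left out a library, here and in ΔK14 below, were not set beside these counts. The counts are therefore not read as particular to the family.

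In ΔK14, where Mock skin had 2 libraries, 9 of 21 members tested were called, all higher, while 7.05% of all genes were called higher and 7.22% lower. They included Serpine2 (5.11 ± 0.69, adjusted p = 0.0107), Serpinf1 (4.36 ± 0.97, adjusted p = 0.0334), Serpinb6a (2.33 ± 0.35, adjusted p = 0.0136) and Serpinh1, with Serpinb3a, Serpinb3d, Serpinb6b and Serpinb6c. Serpinb3a was at least 96.2-fold higher (adjusted p = 0.00464) and Serpinb6b at least 3.96-fold higher (adjusted p = 0.0459), with Mock set to 3 counts per library. Serpinb3d had 1 count in the Mock libraries and its ratio was 41.6 (95% exact interval for counting error 7.2999 to 1661, adjusted p = 0.0299). Serpinb6c had 4 counts there and a ratio of 12.1 (4.602 to 45.2, adjusted p = 0.0367). Calls of Serpinb3a and Serpine2 were kept in all 5 fits that left out a library. The number of calls was 16 without Mock replicate 1 and 16 without Mock replicate 2, and 4, 3 and 3 without Tumor replicate 1, 2 and 3.

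Serpinh1 (HSP47, the collagen chaperone of the endoplasmic reticulum) was the highest member outside clade b. It was at 179.9, 141 and 149 CPM in ΔK14 tumors, 81.1, 85.5 and 58.8 in fl/fl tumors, 68.5 and 66.1 in Mock ΔK14 and 80.4, 53.002 and 53.2 in Mock fl/fl. The ΔK14 tumors lay above every other library. Against Mock ΔK14 it rose by 1.12 ± 0.26 (adjusted p = 0.0353), a call lost without each of the 3 tumors in turn, and against Treated ΔK14 the difference was 0.80 ± 0.20 (adjusted p = 0.0131).

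Serpinb7, which was chosen here after its values were seen, had no count in any of the 6 tumors. It was at 1.99, 42.8 and 45.8 CPM in Mock fl/fl, 0.809 and 68.6 in Mock ΔK14, 4.98, 14.9 and 0.781 in Treated fl/fl and 0.894, 5.07 and 4.89 in Treated ΔK14. Loss of the human gene underlies a palmoplantar keratoderma. Among the comparisons of tumors it passed the low-count filter only against Mock fl/fl, where it was at least 30.8-fold lower with tumors set to 3 counts per library (adjusted p = 0.0587, and 0.00137 without Mock replicate 1). DESeq2 called it there (adjusted p = 4.21e-07), and a single fit of all libraries called it lower than Mock in fl/fl (adjusted p = 0.0257) and in ΔK14 (adjusted p = 0.0231). All these fits used the values by which the gene was chosen, so their p-values are no separate support for a fall. Its neighbour Serpinb8, an inhibitor of furin, was at 25.4 to 118 CPM in every library and passed in none of the 9 comparisons.

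Treated against Mock skin asked what treatment did to skin without tumors. No member was called in either genotype by edgeR, and no gene of the whole table was (0% in each). Of the members tested, 2 of 23 in fl/fl and 1 of 25 in ΔK14 had an unadjusted p under 0.05, beside 913 of 16601 and 763 of 15891 genes. DESeq2 called 0 and 1 of the members, and its calls over all genes were not set beside these. That 1 was Serpinb3a, with a level in Treated ΔK14 at least 28.2-fold that of Mock set to 3 counts per library. The Mock groups were split by replicate 1. Without it 13 members were called in fl/fl, 3 higher and 10 lower, among them Serpinb2 (-3.04 ± 0.55, adjusted p = 0.00882), Serpinb10 (-2.34 ± 0.61, adjusted p = 0.0296) and Serpina3h (-2.68 ± 0.44, adjusted p = 0.00654). The share of all genes called in that fit was not set beside the 13 members, so this count is not read as particular to the family. Mock replicate 1 was singled out with these same values seen, so the p-values of that fit are no separate support.

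Genotype was compared within each stage, to ask what loss of Zfp36 did to the family. No member was called in Mock, Treated or Tumor by edgeR. Over all genes tested, 0%, 0.00616% and 0.0284% were called. Of the members tested, 0 of 22, 4 of 26 and 6 of 21 had an unadjusted p under 0.05, beside 253 of 15920, 901 of 16232 and 1975 of 14067 genes. DESeq2 called 0, 1 (Serpinb3a) and 2 (Serpinb2 and Serpine2) members, and its calls over all genes were not set beside these. In tumors the smallest adjusted p was that of Serpine2 (1.93 ± 0.43, adjusted p = 0.185), followed by Serpinh1 (0.92 ± 0.22, adjusted p = 0.193) and Serpinb2 (1.58 ± 0.50, adjusted p = 0.254). For each of these 3 genes all ΔK14 tumors lay above all fl/fl tumors. Of the 42 members, 6 were separated in this direction and 2 in the other. The share of all genes so separated was not counted, so this is not read as particular to the family.

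All 13 clade b members tested between tumors had a higher fitted level in ΔK14, with a median log2 fold change of 0.79, against 0.19 for the 8 other members tested and -0.02 for all genes. Without the low-count filter the medians were 0.76 for 21 clade b members with a count and -0.19 for 20 others. A low gene can pass that filter through the ΔK14 tumors alone, so the shared direction of the 13 is no test. Among clade b members under the filter, Serpinb1c, Serpinb3c, Serpinb6d and Serpinb13 had lower means in ΔK14 tumors, and Serpinb1b and Serpinb6e had higher means. In Tumor fl/fl replicate 1 the level lay at or above the lowest ΔK14 tumor for Serpinb1a, Serpinb6a, Serpinb9, Serpinb10 and Serpinf1. Without this library all 14 clade b members that passed the same kind of filter had a higher fitted level in ΔK14. The medians were 1.80 for them and -0.0014 for the 11 others. In that fit 12 members were called, 10 higher and 2 lower in ΔK14, among them Serpinb2 (2.47 ± 0.25, adjusted p = 0.000197), Serpinb6a (1.55 ± 0.20, adjusted p = 0.000797), Serpinf1 (4.25 ± 0.69, adjusted p = 0.00225) and Serpine2 (2.08 ± 0.46, adjusted p = 0.0101). The share of all genes called in that fit was not set beside the 12 members, so this count is not read as particular to the family. The library was singled out with these same values seen, so the p-values of that fit are no separate support. The labels do not set this library apart. With it left out, the fl/fl tumors were at 9776 and 9998 CPM for the keratinocyte list, against 26418 to 27818 CPM in ΔK14 tumors. What part this had in the differences of that fit was not tested.

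Of the members with the heptamer in the UTR, fitted log2 differences between ΔK14 and fl/fl tumors were 1.58 for Serpinb2, 1.26 for Serpinb9, 0.92 for Serpinh1, 0.37 for Serpinb8, -0.11 for Serpini1 and -1.15 for Serpinc1. None of them passed the test.

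In Treated skin Serpinb3a was at 7.87, 7.41 and 64.6 CPM in ΔK14 and 0.649, 1.31 and 0.651 CPM in fl/fl, without overlap. The difference of 4.97 ± 1.03 did not pass (adjusted p = 0.716).

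The interaction of genotype with stage asked whether the change from skin to tumor differed between genotypes. It called no member against Treated skin (0.0118% of all genes) and none against Mock skin (0%). Of the 30 members tested in each, 8 and 2 had an unadjusted p under 0.05, beside 2243 of 17017 and 1423 of 17388 genes. DESeq2 called 1 (Serpinh1) and 0 of the members, and its calls over all genes were not set beside these. The smallest adjusted p against Treated skin was that of Serpinh1 (1.17 ± 0.27, adjusted p = 0.203). Calls in 1 genotype and not in the other, such as Serpinb2 and Serpinf1 in ΔK14, were therefore not shown to differ between genotypes. Without Tumor fl/fl replicate 1 the interaction against Treated skin called 5 members, among them Serpinf1 and Serpinb9. The share of all genes called in that fit was not set beside them.

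**Figure D4:**
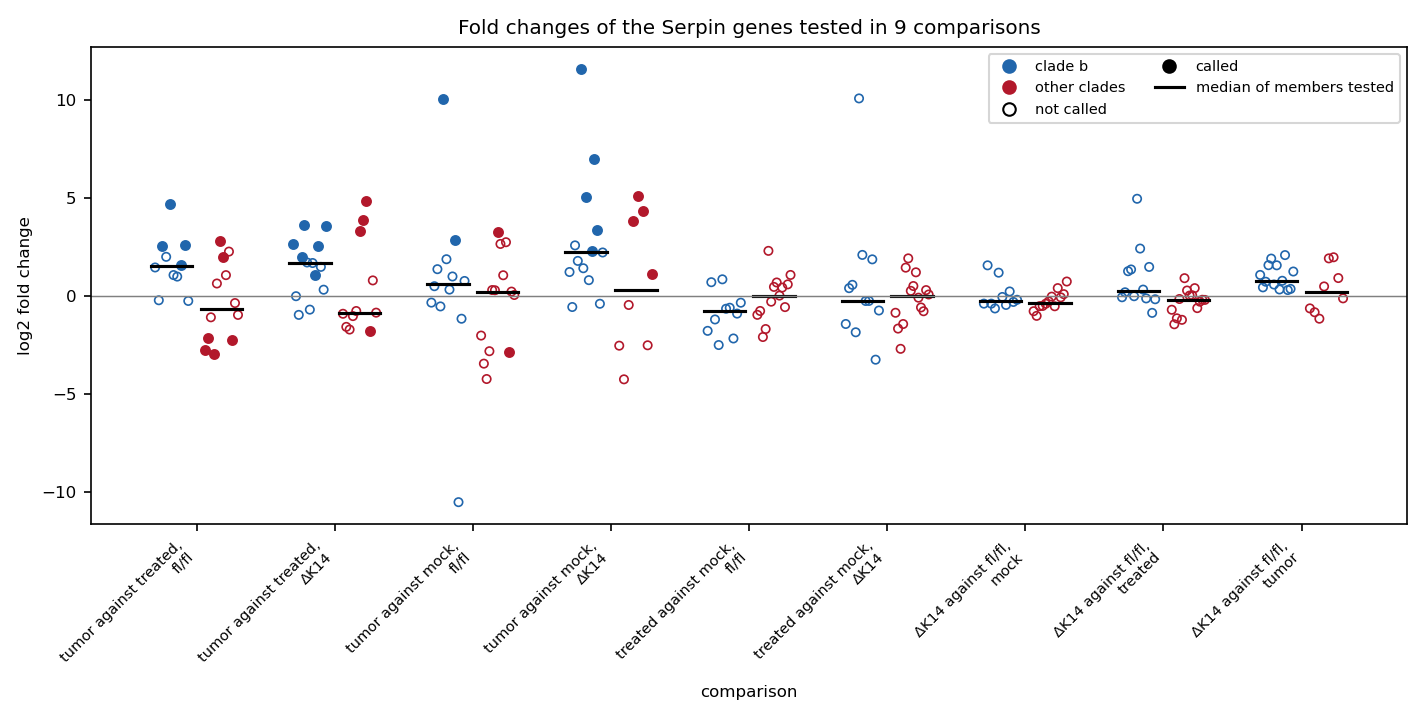
Fitted log2 fold changes (y axis) of the members tested in 9 comparisons (x axis), clade b in blue and other clades in red, with calls filled and a line at the median. Calls lie in the 4 comparisons of tumors with skin and all filled blue points are above 0. Values near 10 belong to genes with no count in a group and depend on the prior count of the fit.

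Clade b as a whole was set against the other clades by counts and medians, with no test. From Treated skin to tumor the median log2 fold change of the members tested was 1.54 for clade b and -0.65 for the others in fl/fl, and 1.69 and -0.84 in ΔK14, beside -0.02 and -0.03 for all genes. Without the low-count filter, all 22 clade b members had medians of 1.26 and 1.59, and the 20 others -0.67 and -0.80. From Mock skin to tumor the medians of the members tested were 0.64 and 0.23 in fl/fl and 2.23 and 0.34 in ΔK14. Without the low-count filter they were 1.11 and -0.78 in fl/fl and 2.46 and -1.76 in ΔK14, so the median of the other clades turned from above to below 0. Without Tumor fl/fl replicate 1 the medians of the members tested in fl/fl were 0.84 and -0.47 against Treated skin and -0.11 and 0.30 against Mock skin.

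Summed levels were closer than these medians. The 22 clade b members summed to 299 to 2043 CPM in Mock, 336 to 1106 CPM in Treated skin, 896 to 2283 CPM in fl/fl tumors and 2438 to 3392 CPM in ΔK14 tumors. The 20 other members summed to 114 to 252 CPM in Mock, 139 to 205 CPM in Treated skin, 247 to 338 CPM in fl/fl tumors and 527 to 652 CPM in ΔK14 tumors. The log2 ratio of the clade b sum to the other sum was 2.37 ± 1.03 (SD, n = 3) in Mock fl/fl, 1.56 ± 0.42 in Treated fl/fl and 2.11 ± 0.59 in fl/fl tumors. In ΔK14 it was 2.23 ± 0.91 (n = 2) in Mock skin, 1.97 ± 0.93 in Treated skin and 2.35 ± 0.13 in tumors. Each change from skin to tumor was smaller than the larger SD of the pair of groups compared. With a library left out, the change from Treated skin to tumor ran from 0.22 to 0.79 in fl/fl and from -0.02 (without Treated replicate 1) to 0.90 (without Treated replicate 3) in ΔK14, and that from Mock skin to tumor from -0.86 to 0.06 and from -0.52 to 0.77.

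The clade b sum moved with the keratinocyte markers. Per 1000 CPM of the 8 basal keratinocyte markers it was 80.2 to 106 CPM in Mock, 62.1 to 66.5 in Treated fl/fl, 83.1 to 90.3 in Treated ΔK14, 68.3 to 95.9 in fl/fl tumors and 92.3 to 122 in ΔK14 tumors. This scale was chosen after the values were seen. Mock replicate 1, with the lowest clade b sum, was at 80.2 CPM in fl/fl and 87.8 in ΔK14 on it, inside the range of the other libraries. The markers changed too, and not all in 1 direction. Against Treated skin Itga6 and Epcam were called higher in tumors of both genotypes, and Krt5, Krt14 and Col17a1 in ΔK14, while Krt15 was called lower in fl/fl. Against Mock skin Krt15 was called lower in both genotypes, and Epcam and Itga6 were called higher in ΔK14. Members differed in whether their order by stage held on this scale. Serpinb2 was at 6.33 to 16.4 CPM per 1000 in Treated skin, 19.8 to 28.6 in fl/fl tumors and 40.8 to 62.2 in ΔK14 tumors. Serpinb3a was at 0.0814 to 0.117 in Treated fl/fl and 0.928 to 1.54 in fl/fl tumors, but in ΔK14 its tumors (2.297 to 4.19) lay inside the range of Treated skin (1.09 to 4.85). Serpine2 overlapped in fl/fl, at 0.486 to 0.638 in Treated skin and 0.600 to 2.205 in tumors, and not in ΔK14, at 0.291 to 1.296 and 1.41 to 4.19. Serpinh1 was at 5.39 to 25.8 in Treated ΔK14 and 5.25 to 6.81 in ΔK14 tumors. Serpinb5 was not higher in tumors on this scale, at 31.1 to 54.96 in Treated skin and 22.1 to 55.9 in tumors. Serpinb8 was lower, at 3.91 to 7.09 in all skin libraries and 1.31 to 3.71 in tumors. What part the share of keratinocytes had in the CPM differences was not tested.

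**Figure D5:**
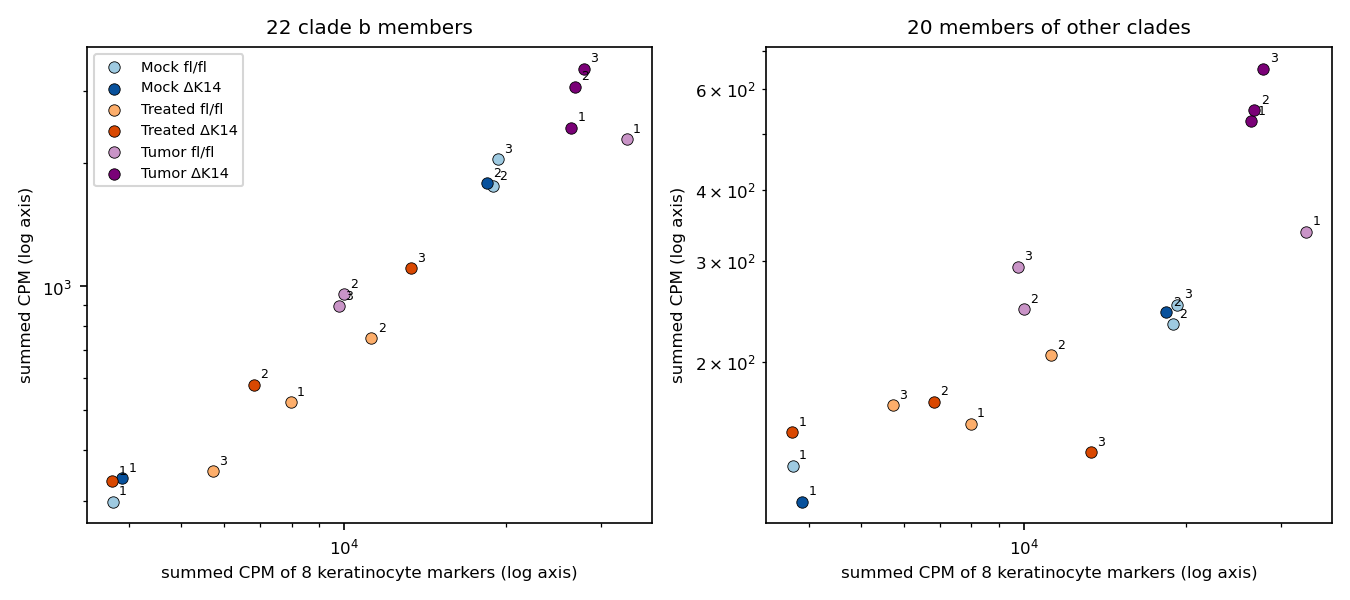
Summed CPM of the 22 clade b members (left) and of the 20 other members (right) against the summed CPM of 8 keratinocyte markers, both on log axes, with 1 point per library and its replicate number. In the left panel the libraries lie along a band, with Mock replicate 1 of each genotype and Treated ΔK14 replicate 1 at the lower end, and in the right panel the ΔK14 tumors lie above the rest.

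Proteases and partners of the serpins were read from a list of 43 genes. From Treated skin to tumor 11 of 28 tested rose and 2 fell in fl/fl, and 10 of 30 rose and 5 fell in ΔK14. The median log2 fold change of those tested was 0.90 and 0.77, beside -0.02 and -0.03 for all genes, whose shares called are given above. Plaur, the urokinase receptor, was at 5.52, 6.99 and 13.8 CPM in Treated fl/fl and 72.6, 168 and 195 CPM in fl/fl tumors (4.02 ± 0.50, adjusted p = 0.00264). In ΔK14 it was at 9.65, 15.6 and 4.72 CPM and 87.5, 180.0 and 266 CPM (4.01 ± 0.52, adjusted p = 0.00115). Urokinase itself, Plau, rose in ΔK14 from 189, 165 and 109 CPM to 568, 1409 and 2032 CPM (3.00 ± 0.44, adjusted p = 0.00189). The receptor therefore rose in both genotypes. Mmp9 and F3 (tissue factor) rose in both genotypes as well, Mmp9 by 4.43 ± 0.87 and 7.43 ± 0.83 and F3 by 1.78 ± 0.30 and 1.91 ± 0.23.

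The kallikreins, serine proteases of the shedding epidermis, divided. Klk10 rose in both genotypes, by 4.10 ± 0.41 in fl/fl and 2.63 ± 0.48 in ΔK14. Klk7 and Klk5, which cut the junctions between horny cells, fell in ΔK14, with log2 fold changes of -4.91 ± 0.59 and -5.77 ± 0.72. In fl/fl Klk7 was at 42.9, 28.4 and 11.7 CPM in Treated skin and 14.5, 98.2 and 86.5 CPM in tumors, a difference of 1.26 ± 0.67 that did not pass (adjusted p = 0.200). Casp14, a caspase of cornification, fell in ΔK14 too (-2.63 ± 0.56). Cst6, an inhibitor of cysteine cathepsins, fell by 5.26 (SE 0.35, adjusted p = 0.000165) in ΔK14 and was at 4.51, 202 and 234 CPM in fl/fl tumors, low in replicate 1 alone. Ctsl (cathepsin L) rose by 1.48 ± 0.23 and 1.74 ± 0.34. In fl/fl the calls lower were Lrp1 (-1.15 ± 0.19), an uptake receptor for serpin complexes with proteases, and Prss8 (-1.23 ± 0.37). In ΔK14 Lrp1 was at 114, 128 and 145 CPM in Treated skin and 166, 319 and 315 CPM in tumors, with all tumors above all Treated libraries, and the difference was 0.94 ± 0.25 (adjusted p = 0.0189), under the fold set for a call. The difference between genotypes in this change was 2.11 ± 0.33 and did not pass (adjusted p = 0.0683).

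Against Mock skin 5 of 29 partners rose and 1 fell in fl/fl, and 10 of 29 rose and 3 fell in ΔK14, with medians of 1.51 and 1.01 beside -0.05 and -0.06 for all genes. Klk8, Mmp9, Ctsl and Klk10 rose in both genotypes. No partner was called by edgeR between Treated and Mock skin, between genotypes at any stage, or in an interaction. In fl/fl and ΔK14, Treated against Mock skin gave 4 and 6 partners with an unadjusted p under 0.05, and DESeq2 called 2 and 3. Between genotypes these counts were 0, 10 and 14 in Mock, Treated and Tumor, with 0, 2 and 6 called by DESeq2. In the interactions against Treated and Mock skin they were 12 and 6, with 7 and 2 called by DESeq2. The counts of all genes at this unadjusted p are given above for each of these comparisons. Calls of DESeq2 over all genes were not set beside those of the partners.

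Of the 42 members, 18 were called in at least 1 of the 9 comparisons of a pair of groups, 10 of clade b and 8 of other clades. Tumor against Treated ΔK14 alone called 10.5% of all genes tested higher and 15.5% lower. The share of all genes called in any of the 9 was not counted, so the 18 are not read as an excess. The remaining members were low. Apart from Serpinb7, Serpinb8, Serpinb12 and Serpina3i, none of the 19 members outside the naming rule exceeded 8.87 CPM in any library. Serpina3i reached 28.05 CPM and Serpinb12 27.1 CPM.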

How the data were processed

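RNA from sorted epidermal cells was sequenced with the Ovation SoLo kit on an Illumina HiSeq. The authors deposited raw counts per Ensembl gene, 52636 genes in 18 columns, and no column lay outside the design. The submitters' processing notes name Trimmomatic 0.36, STAR 2.5.3, HTSeq 0.9.1, DESeq2 and mm10. The annotation release, the strand setting and removal of duplicate reads are not given in the sources used here, so values of overlapping or near-identical genes are uncertain. Replicates were not pooled.

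Differences were fitted with edgeR 4.0.16 in R 4.3.3. Each comparison used only the libraries of its groups, with filterByExpr defaults, TMM scaling and the two-sided quasi-likelihood F test, Benjamini-Hochberg adjusted over all genes tested. Standard errors are the log2 fold change over the square root of F. CPM used 1 TMM scaling over 17 libraries. Total counts of 2808550 to 9617985 set the precision, and intervals and bounds cover counting error only. Folds against groups with no count were computed with 3 counts per library. Alternatives were RLE scaling, no low-count filter, a single fit of all libraries, DESeq2 1.42.0, a block for the replicate number, and fits that omit a library in turn.

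Members, lists and tests were chosen with earlier results of these data known. Values are given for members called in a pairwise comparison, the Serpinb3 copies and the highest member of each clade per kilobase, and for at most 4 partners in each direction by smallest p. Serpinb7, Serpinb8, Serpinb12, Serpina3i, Serpina3n and Serpine3 were added after their values were seen, as were Mmp9, Klk10, Ctsl, C1ra and C1s1 where they lay outside that limit. On simulated data for Tumor against Treated fl/fl (14890 genes, 200 changed) the test found 94% of 4-fold and 100% of 8-fold changes. Of its 205 calls, 11 were wrong. The share found among members with low counts, or with a library that stands apart as in fl/fl tumors, was not tested. These percentages are therefore not read as the share of changes found among the members. Positions and UTRs came from GENCODE M21 (GRCm38), promoters from RefSeq. Protein sequences were not used here. The results of 1 member are not reported here, and it stays in counts, medians and sums over members.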

Additional observations from a re-analysis of the deposited data

How the results depend on the processing

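Counts of members called kept within 1.5 times the value given in 93 of 129 alternatives. In 27 alternatives the log2 ratio of clade sums moved by less than the spread between libraries, though its change from skin to tumor turned sign in some that left out a library. The other counts were as follows. Without the low-count filter the calls from Treated skin to tumor went from 10 to 16 in fl/fl and from 10 to 24 in ΔK14, those from Mock to tumor from 4 to 12 and from 9 to 22, those from Mock to Treated ΔK14 from 0 to 3, those between genotypes in Treated skin from 0 to 4 and in tumors from 0 to 8, and those of the interaction against Treated skin from 0 to 10. A single fit of all libraries gave 9 calls from Mock to tumor in fl/fl and 1 between genotypes in tumors. DESeq2 gave 10 from Mock to tumor in fl/fl, 1 from Mock to Treated ΔK14, 1 between genotypes in Treated skin, 2 in tumors and 1 in the interaction against Treated skin. In each case the cause was not tested. Shares of all genes called were not set beside the counts of members under these settings or those below, so no count is read as particular to the family.

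With each library left out in turn, calls ran from 3 to 13 and 7 to 17 from Treated skin to tumor in fl/fl and ΔK14, from 0 to 12 and 3 to 16 from Mock to tumor, from 0 to 13 from Mock to Treated fl/fl, from 0 to 12 between genotypes in tumors, and from 0 to 5 in the interaction against Treated skin. Leaving out a library leaves fewer samples, and a Mock ΔK14 group of 1 is then assumed to vary like the other groups.

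The replicate number as a block gave 6 calls from Treated skin to tumor in fl/fl, 1 from Mock to tumor in fl/fl and 1 from Mock to Treated ΔK14. The numbers were not shown to pair the libraries, since deviations from the group mean correlated from -0.59 to 0.81 (median 0.06) in 40 pairs with the same number and from -0.81 to 0.75 in 80 pairs with different numbers. At this depth 20 and 18 members were under the low-count filter between tumor and Treated skin, and no difference was tested for them.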
